A study of Mus musculus with 24 samples.

Results

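Mouse peritoneal samples rich in skeletal muscle RNA and poor in Wt1 RNA were compared between treatment with propionate and butyrate together and treatment with only one of these acids. Wt1, a transcription factor of mesothelium and ovarian tissue, and Acta1, skeletal muscle actin, marked these libraries, which were chosen by a deposited Wt1 level of 50 TPM or less (TPM, a transcript's length-corrected share of its library). The comparison holds 12 of the 24 libraries of the series: combination replicates 1, 2 and 6, propionate replicates 1, 2, 5 and 6, and butyrate replicates 1, 3, 4, 5 and 6. Combination replicate 5, which held almost no Acta1 RNA, was left out by the rule. Butyrate replicate 3 was named among the members although its Wt1 level, 71.4 TPM, lay above the limit. The counts over all genes are therefore given without it as well, but most list counts below include it. The limit as written is met by 11 libraries.

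The series holds 6 libraries in each of 4 groups of mouse peritoneal metastases: both acids, propionate alone, butyrate alone, and no acid. The labels give no strain, age, tumour line, dose, time or further treatment. They also do not say that replicates are separate animals, so the tests measure the spread between these samples. RNA was measured by polyA-selected RNA sequencing and deposited as TPM, which keeps no sequencing depth, so no counting interval can be given and precision rests on the number of libraries. Only 1 of the 6 untreated libraries had a Wt1 level under the limit (control 3, 0.65 TPM), so no comparison with untreated Wt1-low samples was made.

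Gut bacteria that ferment fibre and sugars release the short-chain fatty acids propionate and butyrate. Cells sense them through the G protein-coupled receptors Ffar2, Ffar3 and Hcar2, take them up through monocarboxylate carriers, and burn them in mitochondria, propionate by way of propionyl-CoA carboxylase. Butyrate also inhibits histone deacetylases, and in immune cells and fat these acids are known to act on inflammation and lipolysis. Skeletal muscle lies beneath the parietal peritoneum, and its sarcomeric and mitochondrial transcripts take up much of the RNA of a sampled piece.

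Wt1 and Acta1 values chose or marked the libraries and are given as a description. Wt1 stood at 4.33, 15.6 and 1.76 TPM in the combination libraries. It stood at 1.07, 2.58, 1.27 and 21.3 TPM in the propionate libraries and at 0.37, 71.4, 17.2, 1.73 and 28.0 TPM in the butyrate libraries. The groups overlapped widely. The highest value under the limit was the 28.0 TPM of butyrate 6, and the nearest treated library outside the comparison, butyrate replicate 2, had 166 TPM. Acta1 stood at 17133, 20797 and 22685 TPM in the combination libraries, against 16282 to 26808 TPM in the 9 single-acid libraries with a median of 17984 TPM. All 12 libraries were therefore rich in muscle RNA, whereas the combination library left out had 2.52 TPM. High Acta1 was not particular to the 12. In the other libraries outside the comparison it ran from 5384 TPM (propionate 3) to 19475 TPM (control 6, with Wt1 at 257 TPM).

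Of 16 epithelial and carcinoma genes, 7 reached the filter used for testing (at least 1 TPM in at least 3 of the 12 libraries), and Epcam, Cdh1, Cldn3, Cldn4 and Pax8 did not. The summed TPM of the 16 genes spanned 18.6 to 179 in combination libraries and 8.69 to 155 in single-acid libraries. Mesothelium genes, which follow Wt1 and so carry no test, summed to 506 to 744 TPM in combination libraries and to 455 to 981 TPM in single-acid libraries. Whether a low Wt1 level means little tumour was not tested.

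**Figure D1:**
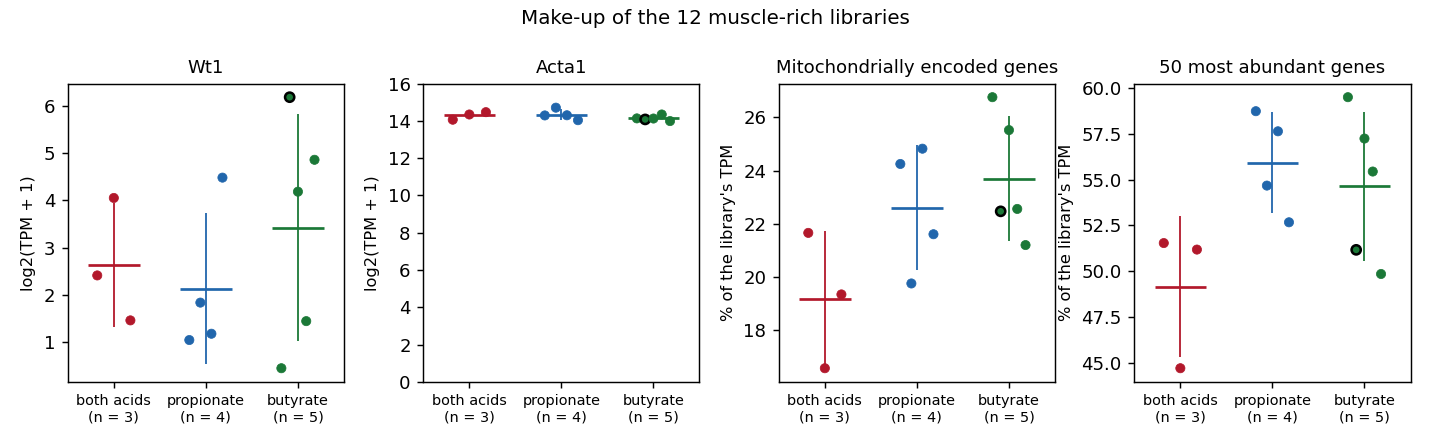
Wt1 and Acta1 as log2(TPM + 1), and the share of each library's TPM held by mitochondrially encoded genes and by the 50 most abundant genes, in both-acid, propionate and butyrate libraries (points, libraries; horizontal lines, means; vertical lines, SD; black outline, butyrate replicate 3). Acta1 is alike in the 3 groups, and the mitochondrial share averages 19.2% with both acids and 23.2% with one acid.

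Mitochondrially encoded genes held 19.2 ± 2.55% of TPM in combination libraries and 23.2 ± 2.27% in single-acid libraries (SD, n = 3 and 9), a difference of -4.03 percentage points that gave a two-sided exact permutation p of 0.0455 and 0.0955 after adjustment over 3 make-up measures. The smallest p these 220 arrangements allow is 0.00909. The 50 most abundant genes held 49.2 ± 3.84% of TPM in combination libraries and 55.2 ± 3.4% in single-acid libraries (exact permutation p = 0.0636, adjusted 0.0955). Genes at 1 TPM or more numbered 13569 ± 467 in combination libraries and 13257 ± 542 in single-acid libraries (exact permutation p = 0.382). On the first principal component, which held 41.1% of the variance, butyrate 3 (-53.5) and combination 2 (-50.7) had the lowest scores, followed by butyrate 6 (-32.0), and propionate 1 had the highest (39.9).

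In the main fit, with no block and no library weights, no gene of 14254 tested passed the threshold between both acids and one acid. The smallest adjusted p was 0.349 (limma on log2(TPM + 1), Benjamini-Hochberg adjustment, threshold 0.05), and no gene named below for this comparison has a smaller one. Without adjustment, 1773 genes were higher in combination libraries at p under 0.05 (12.4% of genes tested) and 97 were lower (0.681%). The median log2 fold change over all genes was 0.16, and 11113 genes (78%) lay above 0. Scaling libraries by the median of ratios brought that median to -0.01 and gave 858 genes higher and 458 lower, so 65.2% of these genes were higher in place of 94.8%. Quantile normalization gave 822 higher and 543 lower, or 60.2% higher. Leaving out combination 2 left 418 genes higher and 67 lower, and leaving out butyrate 3, as the Wt1 limit read literally asks, gave 2755 higher and 86 lower with a smallest adjusted p of 0.213. Values given below on the log2 scale are therefore read against 0.16, the shift of the median gene. Because these are bulk pieces, more cells of a type and more RNA per cell cannot be told apart.

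Among the genes of smallest unadjusted p whose log2(TPM + 1) averaged 1 or more, 23 are described, 22 of them higher in combination libraries and 1 lower. They are described by their known roles. In 17 of the 22 every combination library lay above every single-acid library. Over all genes tested this held for 218 (1.53%), and the reverse for 10 (0.0702%). The 22 were chosen by p in these same libraries, so their separation is a description and no further support.

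Several are known from endothelium. Hspa12b, a heat shock protein relative of vessel wall cells, stood at 10.9, 13.6 and 13.2 TPM in combination libraries. In propionate libraries it stood at 7.25, 5.91, 7.07 and 8.90 TPM, and in butyrate libraries at 6.75, 7.10, 6.73, 8.66 and 8.52 TPM. The groups did not overlap, and the log2 fold change was 0.69 ± 0.13 (SE). Klf2, a transcription factor induced by blood flow in endothelium and also expressed in resting T cells, stood at 18.9, 22.6 and 17.8 TPM in combination libraries. It stood at 8.27 to 12.4 TPM in propionate libraries and at 8.66 to 15.9 TPM in butyrate libraries (log2 fold change 0.82 ± 0.17), again without overlap. Rbp7, a retinol-binding protein of capillary endothelium and fat, had 11.96, 16.7 and 17.5 TPM in combination libraries and 3.43 to 8.78 TPM in single-acid libraries (1.17 ± 0.24).

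Dll4, a Notch ligand of arterial and sprouting endothelium, had 3.80, 5.97 and 4.38 TPM in combination libraries and 1.69 to 3.02 TPM in single-acid libraries (0.75 ± 0.16). Icam2, an adhesion molecule of endothelium and platelets, had 16.8, 26.9 and 17.9 TPM in combination libraries and 8.02 to 15.7 TPM in single-acid libraries (0.87 ± 0.20). Both were separated without overlap. Gata2, a transcription factor of endothelium and blood progenitors, had 5.48 to 6.54 TPM in combination libraries and 2.31 to 4.02 TPM in single-acid libraries (0.71 ± 0.16). Gpihbp1, which carries lipoprotein lipase across capillary endothelium, had 90.6, 112 and 65.3 TPM in combination libraries and 33.8 to 67.5 TPM in single-acid libraries (1.02 ± 0.24). Its groups overlapped at butyrate 6, whose 67.5 TPM exceeded combination 6.

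Others are known from leukocytes. Cmklr1, the chemerin receptor of macrophages, had 15.1, 21.0 and 16.5 TPM in combination libraries and 6.78 to 15.2 TPM in single-acid libraries (0.85 ± 0.18). Pira2, a receptor of myeloid cells from a family of close paralogs, so that its reads are uncertain, had 2.65 to 5.25 TPM in combination libraries and 0.64 to 2.82 TPM in single-acid libraries (1.00 ± 0.24). Batf, a transcription factor of lymphocytes and dendritic cells, had 2.49 to 3.81 TPM in combination libraries and 0.77 to 2.44 TPM in single-acid libraries (0.84 ± 0.19). Fes, a tyrosine kinase of myeloid cells, had 9.38 to 14.1 TPM in combination libraries and 4.23 to 8.69 TPM in single-acid libraries (0.85 ± 0.19). Rab27a, which docks secretory granules, had 3.33 to 4.40 TPM in combination libraries and 1.23 to 2.70 TPM in single-acid libraries (0.75 ± 0.17).

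Tsc22d3, which encodes the glucocorticoid-induced leucine zipper protein, had 152, 129 and 82.4 TPM in combination libraries and 49.0 to 78.7 TPM in single-acid libraries (0.81 ± 0.17). Cebpb, a transcription factor of fat cell formation and of the acute phase response, had 16.9, 19.9 and 17.3 TPM in combination libraries and 10.8 to 15.5 TPM in single-acid libraries (0.53 ± 0.12). In neither gene did the groups overlap. The one gene of the 23 that was lower was Prkg1, a cGMP-dependent protein kinase that relaxes smooth muscle. It had 6.84, 5.89 and 6.57 TPM in combination libraries, against 10.9 to 14.3 TPM in propionate libraries and 7.05 to 12.5 TPM in butyrate libraries (log2 fold change -0.75 ± 0.16). The lowest single-acid value came from butyrate 6, and the other 8 stood at 10.9 TPM or more.

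The remaining genes of the 23 were Dok4, Dapk1, Plxna2, Slc25a25, Blvrb, Sash1, Gtf2f2 and the predicted gene Gm17122, each higher in combination libraries. Gm17122 had the largest log2 fold change of the 23, 2.21 ± 0.40, on 8.01, 6.55 and 3.29 TPM in combination libraries and 0 to 2.64 TPM in single-acid libraries, 5 of which were listed at 0. All 22 genes higher against both single acids were also above 0 against propionate and against butyrate taken apart, comparisons that share the combination libraries. For the 17 without overlap this follows from the separation itself. As all 22 were chosen in these libraries, it is no separate support.

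**Figure D2:**
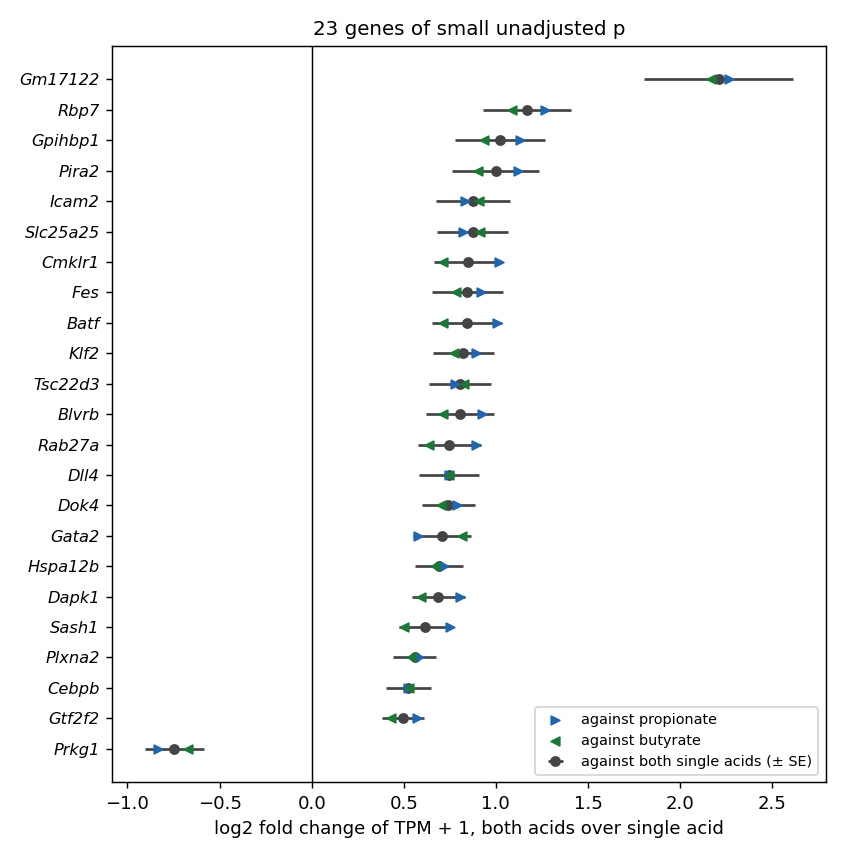
Log2 fold changes of TPM + 1 for 23 genes of small unadjusted p, both acids over one acid (circles, with SE), over propionate (right-pointing triangles) and over butyrate (left-pointing triangles). Gm17122 lies farthest right at 2.21 and Prkg1 is the only gene left of 0, at -0.75; none passed the threshold.

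Whether any gene passed turned on single libraries and on the model. Weighting each of the 12 libraries by its spread gave 1098 genes past the threshold. A replicate block by library number gave 1441, and a block by title number gave none. Without butyrate 6, 8 genes passed (limma adjusted p 0.0256 to 0.0423): Blvrb, Cmklr1, Klf2 and Prkg1 of those above, with Ccl9, Ifi27l2a, Kcnab2 and Pf4, which are named here because they passed. Of these 8, only Prkg1 was lower, by a log2 fold change of -0.82 ± 0.11. Without combination 6 a single gene passed, Slfn4 (1.95 ± 0.25, adjusted p = 0.0489). A fit over all 17 treated libraries other than combination 5, with the Wt1 level as a covariate, called 207 genes (1.45% of those tested), all higher with both acids. The 23 genes were chosen in 12 of these 17 libraries, so the 8 of them called are a description: Dapk1, Cmklr1, Batf, Blvrb, Fes, Rab27a, Gtf2f2 and Pira2. That fit also uses the 5 Wt1-high treated libraries, and so is not a result of the muscle-rich libraries alone.

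Genes of vessel wall cells were described as a list of 14. All 14 were tested and lay above 0, and 9 were higher at an unadjusted p under 0.05 (64.3%, against 12.4% of all genes). Their median log2 fold change was 0.50, against 0.16 over all genes. Cdh5, the cadherin of endothelial junctions, had 46.1, 58.6 and 54.6 TPM in combination libraries. It had 27.6, 30.9, 36.5 and 36.4 TPM in propionate libraries and 25.5, 33.3, 28.5, 42.7 and 44.1 TPM in butyrate libraries. The groups did not overlap (0.65 ± 0.16), and it was the sole gene of the list for which this held. Robo4, a guidance receptor of endothelium (0.52 ± 0.19), Emcn, the sialomucin endomucin (0.60 ± 0.22), and Erg, an endothelial transcription factor (0.61 ± 0.22), were higher with overlap. Without combination 2 the median was 0.41 and 3 genes were past that unadjusted limit, where 2.93% of all genes were. With median-of-ratios scaling the median was 0.32 and 4 genes were past it.

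All 18 fat cell genes were tested and above 0, where 78% of all genes were, with a median log2 fold change of 0.93. At an unadjusted p under 0.05, 14 were higher (77.8%, against 12.4% of all genes). Adipoq, the fat cell hormone adiponectin, had 266, 604 and 223 TPM in combination libraries, against 113 to 156 TPM in propionate libraries and 90.6 to 263 TPM in butyrate libraries (1.13 ± 0.33). Plin1, the lipid droplet coat protein, had 59.4, 181 and 51.9 TPM in combination libraries and 24.6 to 60.4 TPM in single-acid libraries (1.15 ± 0.34). Combination 2 was the highest library for both. Pparg, the master regulator of fat cell formation (1.04 ± 0.30), and Lipe, hormone-sensitive lipase (0.84 ± 0.26), were highest in combination 2 as well. Without combination 2 the list's median was 0.51 and 1 gene was past the unadjusted limit, where 2.93% of all genes were.

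Summed TPM of the fat cell list ran from 9857 to 16697 in combination libraries and from 6553 to 9949 in single-acid libraries, and the part of fat RNA in the other differences was not tested. Of 24 fatty acid oxidation and PPAR target genes, 3 were higher at an unadjusted p under 0.05, a share like the 12.4% of all genes, namely Cd36, a fatty acid transporter (0.74 ± 0.21), Plin2, another droplet coat protein (0.75 ± 0.25), and Angptl4, an inhibitor of lipoprotein lipase (0.91 ± 0.39). Their median was -0.05. Of 21 sterol and fatty acid synthesis genes, 20 were above 0 and 5 past the unadjusted limit (23.8%, against 12.4% of all genes), with a median of 0.54. Without combination 2 the median was 0.16 and none was past it. With median-of-ratios scaling 1 was past it, and with quantile normalization 3 were. Scd1, which desaturates fatty acids, had 673, 3094 and 958 TPM in combination libraries and 201 to 870 TPM in single-acid libraries (1.31 ± 0.53). Insig1, which holds back sterol synthesis, had 14.2, 89.0 and 24.4 TPM in combination libraries and 6.98 to 25.2 TPM in single-acid libraries (1.03 ± 0.45). Combination 2 lay above the other 2 combination libraries for both.

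**Figure D3:**
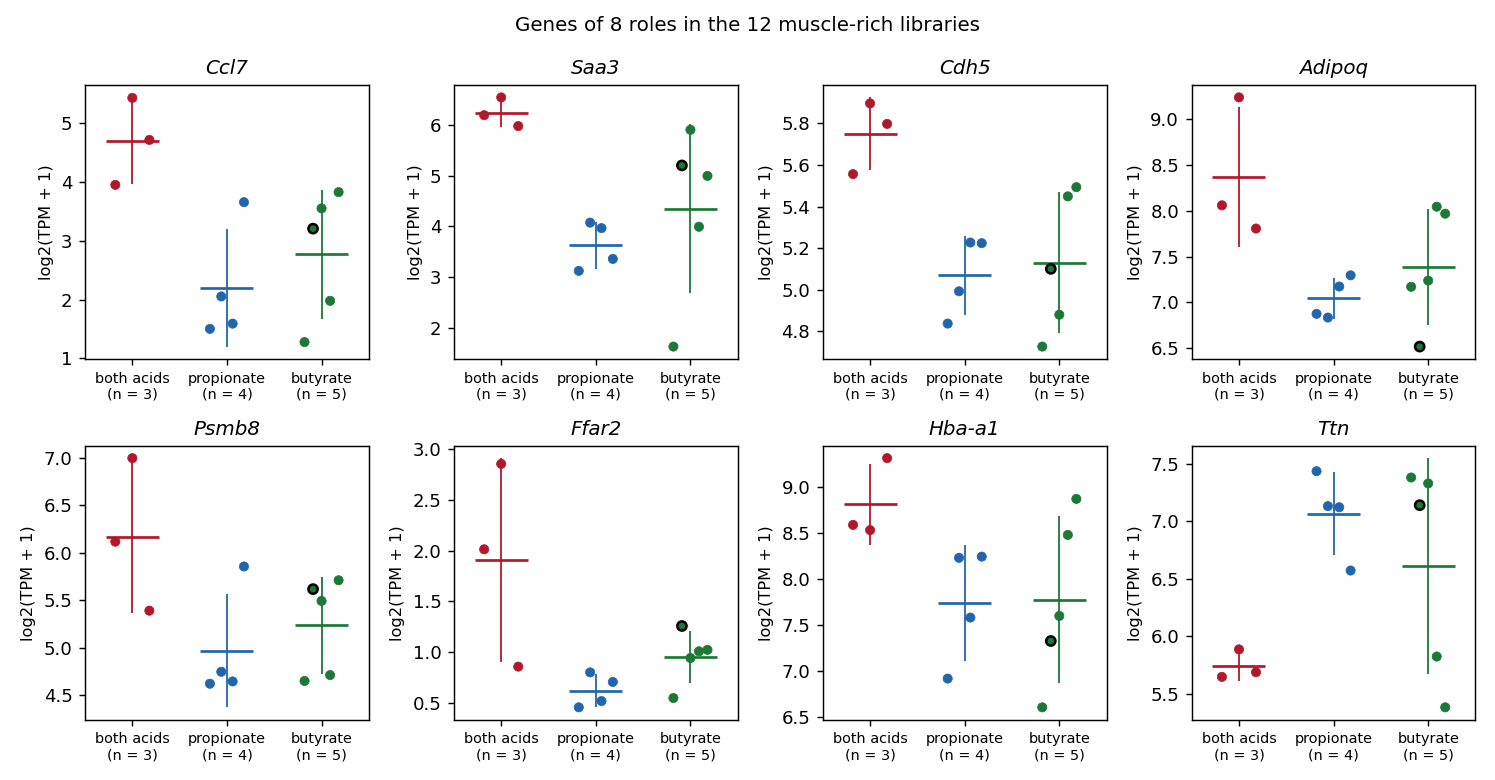
Log2(TPM + 1) of 8 genes in both-acid, propionate and butyrate libraries (points, libraries; horizontal lines, means; vertical lines, SD; black outline, butyrate replicate 3). Ccl7, Saa3 and Cdh5 are higher in every both-acid library than in any single-acid library; the other 5 overlap.

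All 22 monocyte and macrophage genes lay above 0, where 78% of all genes did, with a median of 0.65. At an unadjusted p under 0.05, 13 were higher (59.1%, against 12.4% of all genes). Without combination 2 the median was 0.64, and 4 genes were past the unadjusted limit, where 2.93% of all genes were. Fcgr3, an antibody receptor, had 59.6, 67.0 and 55.0 TPM in combination libraries and 24.8 to 67.5 TPM in single-acid libraries (0.74 ± 0.25). Cd68, a lysosomal macrophage marker, had 50.2, 74.5 and 43.3 TPM in combination libraries and 17.6 to 70.5 TPM in single-acid libraries (0.98 ± 0.34). C1qb, a chain of complement C1q made by macrophages, had 177 to 237 TPM in combination libraries and 75.5 to 233 TPM in single-acid libraries (0.83 ± 0.30). In all 3 the highest single-acid library was butyrate 6. The 4 propionate libraries lay below the 3 combination libraries for each.

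Genes of the resident macrophages of the peritoneal cavity numbered 9 tested of 10. Of these, 7 lay above 0 and 5 were higher at the unadjusted limit (55.6%, against 12.4% of all genes), with a median of 0.68. Without combination 2 the median was 0.64 and 5 genes were past the limit, where 2.93% of all genes were. Saa3, an acute phase protein made by macrophages and fat cells, had 72.6, 93.0 and 62.4 TPM in combination libraries. It had 7.70, 15.9, 14.6 and 9.25 TPM in propionate libraries and 2.08, 36.0, 59.2, 14.9 and 31.0 TPM in butyrate libraries. The groups did not overlap (log2 fold change 2.22 ± 0.70), although butyrate 4 came close to combination 6. Alox15, a lipoxygenase of resident macrophages and eosinophils, also did not overlap, with 3.15, 3.23 and 4.18 TPM in combination libraries and 0.93 to 2.37 TPM in single-acid libraries (0.68 ± 0.18). Icam2, described above, is also on this list. Timd4, a receptor for dying cells on resident macrophages (0.92 ± 0.33), and F10, coagulation factor X (1.08 ± 0.27), were higher with overlap.

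Alternatively activated macrophage genes gave 3 of 11 past the unadjusted limit (27.3%, against 12.4% of all genes) and a median of 0.57. Mgl2, a lectin of such cells, had 55.7, 62.3 and 75.3 TPM in combination libraries and 22.9 to 64.8 TPM in single-acid libraries (0.83 ± 0.23). Arg1, arginase, was high in combination 2 alone, with 22.1 TPM beside 5.22 and 1.66 TPM in the other combination libraries and 0.13 to 5.09 TPM in single-acid libraries (1.68 ± 0.56). Mrc1, the mannose receptor, had 33.8 to 49.4 TPM in combination libraries and 16.8 to 42.2 TPM in single-acid libraries (0.62 ± 0.26). Retnla, a secreted marker of these cells, had 1259, 953 and 1371 TPM in combination libraries and 191 to 2285 TPM in single-acid libraries (0.71 ± 0.62), which overlapped almost wholly.

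Neutrophil genes had the highest median of the 47 lists examined, 0.95 beside 0.93 for fat cell genes. Of 18 such genes 9 were tested, all above 0, and 8 were higher at the unadjusted limit (88.9%, against 12.4% of all genes). Low genes could reach the filter through the combination libraries alone, so the signs, count, median and rank of this list are a description. Without combination 2 the median was 0.67, below the 0.99 of red cell genes. In that setting 2 genes were past the limit, where 2.93% of all genes were. Ly6g, the defining surface marker, was listed at 0 in all 12 libraries, and the summed TPM of the list was 43.8 to 179 in combination libraries and 14.7 to 56.1 in single-acid libraries. S100a8, a calcium-binding alarmin, had 16.7, 39.9 and 2.80 TPM in combination libraries and 0.66 to 8.56 TPM in single-acid libraries (1.78 ± 0.67). Its partner S100a9 had 17.5, 66.0 and 3.82 TPM in combination libraries and 0.81 to 10.2 TPM in single-acid libraries (1.81 ± 0.71). Combination 6 lay within the single-acid range for both.

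Retnlg, a resistin-like protein of neutrophils, had 5.23, 8.40 and 10.8 TPM in combination libraries and 1.60 to 8.83 TPM in single-acid libraries (1.19 ± 0.37). Its highest combination library was combination 6, which was the lowest of the 3 for both alarmins, while butyrate 3 was the highest single-acid library for all 3 genes. Il1r2, a decoy receptor for interleukin 1 (0.89 ± 0.26), Hdc, which makes histamine (0.82 ± 0.26), and Csf3r, the receptor for granulocyte growth factor (0.95 ± 0.33), were higher with overlap. Mast cell and eosinophil genes gave 5 of 8 past the limit (62.5%, against 12.4% of all genes) and a median of 0.57. With median-of-ratios scaling 1 was past it, where 6.02% of all genes were. Mcpt4 and Cma1, proteases of connective tissue mast cells, had 30.1 to 48.3 TPM and 22.4 to 33.9 TPM in combination libraries, against 16.4 to 38.0 TPM and 9.43 to 32.2 TPM in single-acid libraries. Epx, an eosinophil peroxidase, was listed at 0 in all 12 libraries.

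Ccl7, which draws monocytes, had 14.5, 42.3 and 25.4 TPM in combination libraries. It had 1.83, 3.15, 2.01 and 11.6 TPM in propionate libraries and 1.42, 8.24, 10.7, 2.94 and 13.2 TPM in butyrate libraries. The groups did not overlap (log2 fold change 2.19 ± 0.59). Ccl2, the neighbouring monocyte chemokine, had 11.1, 39.9 and 17.6 TPM in combination libraries and 2.70 to 26.2 TPM in single-acid libraries (1.67 ± 0.56). Only butyrate 6 exceeded any combination library. Il1b, an inflammatory cytokine, had 1.26, 11.6 and 0.90 TPM in combination libraries and 0.11 to 2.08 TPM in single-acid libraries (1.38 ± 0.47). The 13 tested genes of the NF-kB and cytokine list all lay above 0, with a median of 0.69. Of these, 5 were past the unadjusted limit (38.5%, against 12.4% of all genes). Without combination 2 the median was 0.27 and 2 genes were past it, where 2.93% of all genes were. A low gene could reach the filter of 1 TPM in 3 libraries through the combination libraries alone. The signs, count and median of this list are therefore a description and no test. Il6 and Tnf were below the filter.

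Of 14 complement genes 13 lay above 0, with a median of 0.44, and 4 were past the unadjusted limit (28.6%, against 12.4% of all genes). With median-of-ratios scaling 1 was past it, where 6.02% of all genes were, and with quantile normalization 1 was. C5ar1, the receptor for complement fragment C5a, had 7.85, 14.8 and 12.7 TPM in combination libraries and 2.56 to 9.78 TPM in single-acid libraries (1.12 ± 0.31). Serping1, the C1 inhibitor, differed less, by a log2 fold change of 0.38 ± 0.14, and Cfp, properdin, by 0.74 ± 0.30. Cfd, factor D, which is also the fat cell protease adipsin, had 1323, 1614 and 890 TPM in combination libraries and 445 to 1463 TPM in single-acid libraries (0.68 ± 0.28).

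**Figure D4:**
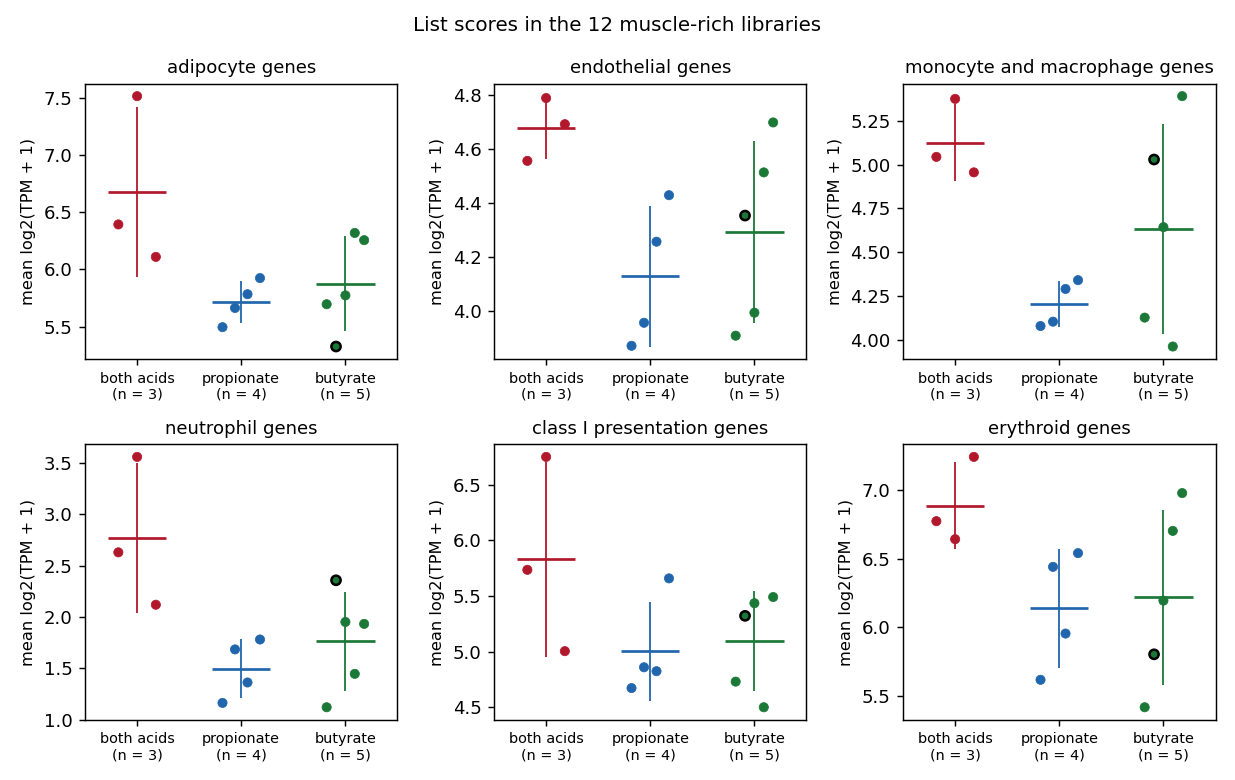
Mean log2(TPM + 1) over the tested genes of 6 lists in both-acid, propionate and butyrate libraries (points, libraries; horizontal lines, means; vertical lines, SD; black outline, butyrate replicate 3). Propionate libraries lie below all both-acid libraries for adipocyte, endothelial, macrophage, neutrophil and erythroid genes, while butyrate libraries spread further up.

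All 16 class I genes lay above 0, 9 of them past the unadjusted limit (56.25%, against 12.4% of all genes), with a median of 0.78. Without combination 2 the median was 0.31 and 1 gene was past it, where the median of all genes was 0.08 and 2.93% were past it. With combination 5 included the list's median was 1.27, beside 0.32 for all genes. Psmb8, an immunoproteasome subunit, had 68.4, 127 and 40.9 TPM in combination libraries, against 23.6, 25.8, 24.0 and 56.9 TPM in propionate libraries and 24.1 to 51.3 TPM in butyrate libraries (1.05 ± 0.35). Psmb10, another such subunit, had 32.2, 57.0 and 28.4 TPM in combination libraries and 15.9 to 33.5 TPM in single-acid libraries (0.77 ± 0.22). Erap1, a peptidase that trims antigens, differed by 0.53 ± 0.18. H2-D1, a class I chain whose reads are uncertain because its paralogs are alike, had 436, 813 and 258 TPM in combination libraries and 191 to 398 TPM in single-acid libraries (0.81 ± 0.29). The fit with the Wt1 covariate, which includes Wt1-high libraries, called 8 of these 16 genes, against 1.45% of all genes.

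The 19 tested interferon gamma response genes all lay above 0 as well, with 6 past the limit (31.6%, against 12.4% of all genes) and a median of 0.79. Leaving out combination 2 gave a median of 0.24 and no gene past the limit. Irf1, a transcription factor of that response, had 23.9, 51.6 and 19.3 TPM in combination libraries and 11.96 to 24.3 TPM in single-acid libraries (0.80 ± 0.28). Irgm2, a guanosine triphosphatase that this cytokine induces, had 38.4, 125 and 18.2 TPM in combination libraries and 10.5 to 32.9 TPM in single-acid libraries (1.08 ± 0.44). Tgtp1 (1.18 ± 0.43) and Gbp5 (0.73 ± 0.28), of the same class of enzymes and with close paralogs, were highest in combination 2 too. Of 21 type I interferon response genes, 4 were past the limit (19.0%, against 12.4% of all genes), with a median of 0.52. Without combination 2 the median was 0.25 with none past it. Bst2, tetherin, was among the 4, with 73.0, 144 and 75.3 TPM in combination libraries and 33.6 to 107 TPM in single-acid libraries (0.84 ± 0.33).

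Cd274, the checkpoint ligand PD-L1, had 6.93, 19.3 and 3.12 TPM in combination libraries and 2.79 to 4.84 TPM in single-acid libraries (0.91 ± 0.33). Combination 6 lay inside the single-acid range, whereas combination 1 and 2 lay above it. Cd8a, a chain of the killer T cell co-receptor, was at 0.04 to 1.04 TPM in combination libraries and 0.03 to 0.53 TPM in single-acid libraries, and Foxp3, of regulatory T cells, was at 0.09 to 0.18 TPM in combination libraries and 0.03 to 0.53 TPM in single-acid libraries. Both were below the filter, as did Gzmb, a killer cell granzyme, which had 2.29, 3.82 and 0.09 TPM in combination libraries and 0.08 to 0.81 TPM in single-acid libraries.

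Of 20 T cell genes 13 were tested, all above 0, where 78% of all genes were. Of these 13, 2 were past the limit (15.4%, near the 12.4% of all genes), with a median of 0.54. The median was 0.11, with none past the limit, without combination 2, and 1.71 with combination 5 included. Low genes of this list and the next could reach the filter through the combination libraries alone, so the signs, counts and medians of both are a description. Trac, the T cell receptor alpha constant region, had 4.40, 9.32 and 2.87 TPM in combination libraries and 1.07 to 3.77 TPM in single-acid libraries (0.92 ± 0.31). Of 16 cytotoxic lymphocyte genes 5 were tested, 3 of them past the limit (60%, against 12.4% of all genes), with a median of 0.88. It was 0.29, with none past the limit, without combination 2, and 1.63 with combination 5. With median-of-ratios scaling 1 was past the limit, and with quantile normalization 3 were. Nkg7, a granule protein of such cells, had 4.26, 11.4 and 0.62 TPM in combination libraries and 0.63 to 3.39 TPM in single-acid libraries (1.05 ± 0.48), so combination 6 was the lowest of the 12 libraries.

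Ffar2, their main receptor on granulocytes, had 3.04, 6.25 and 0.81 TPM in combination libraries. It had 0.37, 0.74, 0.43 and 0.63 TPM in propionate libraries and 0.46, 1.39, 0.92, 1.01 and 1.03 TPM in butyrate libraries (1.10 ± 0.31). Combination 1 and 2 lay above all single-acid libraries and combination 6 did not. Hcar2, the niacin and butyrate receptor of fat and myeloid cells, had 1.26, 6.18 and 1.47 TPM in combination libraries and 0.82 to 2.25 TPM in single-acid libraries (0.65 ± 0.30). Hcar1, the lactate receptor of fat cells, had 2.45, 8.29 and 2.28 TPM in combination libraries and 1.13 to 3.87 TPM in single-acid libraries (0.74 ± 0.30). Ffar3 was listed at 0 in all 12 libraries. The median of the 4 tested receptor genes was 0.70, and 0.19 without combination 2.

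Slc16a1, the carrier MCT1, had 7.59, 15.8 and 16.2 TPM in combination libraries and 9.45 to 19.9 TPM in single-acid libraries, with a log2 fold change of 0.00 ± 0.23 (-0.18 with median-of-ratios scaling). Slc16a7, the carrier MCT2, had 2.97, 3.88 and 3.03 TPM in combination libraries and 0.52 to 4.14 TPM in single-acid libraries (0.76 ± 0.27), and Slc16a10, an aromatic amino acid carrier, differed by 0.33 ± 0.14. Of 21 genes of propionyl-CoA and ketone body metabolism 15 lay above 0, where 78% of all genes did. Their median was 0.17 beside 0.16 for all genes, and -0.03 with median-of-ratios scaling. At the unadjusted limit 2 were higher (9.52%, against 12.4% of all genes), and none with median-of-ratios scaling or quantile normalization. These 2 were Acss2, which activates acetate (28.2, 104 and 53.5 TPM in combination libraries, 14.9 to 43.3 TPM in single-acid libraries), and Pccb, a subunit of propionyl-CoA carboxylase (0.31 ± 0.14). The partner subunit Pcca differed by 0.34 ± 0.16. Of 11 histone deacetylase genes 2 were past the limit (18.2%, against 12.4% of all genes), Hdac11 among them at 0.49 ± 0.19. The list's median was 0.06, and -0.13 with median-of-ratios scaling.

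Of 22 contractile genes shared by skeletal muscle fibres, 7 were above 0 and 2 were lower at an unadjusted p under 0.05 (0.681% of all genes were), with a median of -0.05. Ttn, the giant spring protein titin, had 49.1, 58.1 and 50.5 TPM in combination libraries. It had 172, 139, 138 and 94.1 TPM in propionate libraries and 165, 140, 160, 55.6 and 40.7 TPM in butyrate libraries. All combination libraries lay below all propionate libraries, but butyrate 5 and 6 overlapped them, and the log2 fold change was -1.07 ± 0.40. Neb, the thin filament ruler nebulin, had 396, 451 and 429 TPM in combination libraries and 357 to 737 TPM in single-acid libraries (-0.48 ± 0.22), with the same 2 butyrate libraries lowest among those given one acid. Ryr1, the calcium release channel, differed by -0.40 ± 0.28, and Acta1 by 0.07 ± 0.14 (-0.13 with median-of-ratios scaling).

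Fast-twitch genes had 4 of 14 above 0, none past the unadjusted limit and a median of -0.05, with Myh4, the fast myosin of type IIb fibres, at -0.25 ± 0.30. Slow-twitch genes had 10 of 13 above 0, with a median of 0.13 that was -0.07 with median-of-ratios scaling. Ankrd2, a stretch-induced muscle protein, was the one past the limit (7.69%, against 12.4% of all genes). It had 215, 248 and 103 TPM in combination libraries and 38.0 to 230 TPM in single-acid libraries (0.94 ± 0.40). Csrp3, muscle LIM protein, had 800, 750 and 346 TPM in combination libraries and 298 to 941 TPM in single-acid libraries (0.54 ± 0.35). All these combination values lay within the single-acid range except that of combination 2 for Ankrd2, and butyrate 6 was the highest single-acid library for both.

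Atrophy and denervation genes included 4 of 19 past the limit (21.1%, against 12.4% of all genes), with a median of 0.20 that was 0.01 without combination 2. Mt2 and Mt1 are metallothioneins, which bind zinc and are induced by glucocorticoids. Mt2 had 136, 134 and 88.0 TPM in combination libraries, 10.6, 24.1, 18.1 and 35.6 TPM in propionate libraries, and 16.3, 114, 51.5, 25.3 and 77.7 TPM in butyrate libraries (1.84 ± 0.60). Only butyrate 3 lay above any combination library. Mt1 had 122, 127 and 77.3 TPM in combination libraries and 34.7 to 104 TPM in single-acid libraries (1.01 ± 0.30), and as a near relative of Mt2 it may share reads with it. Foxo1, a transcription factor of muscle protein breakdown (0.50 ± 0.15), and Myog, a myogenic factor also induced by denervation (0.62 ± 0.20), completed the 4. Of 14 regeneration genes, with a median of 0.20, 2 were past the limit (14.3%, near the 12.4% of all genes). These were Myog again and Vcam1, an adhesion molecule, at 0.77 ± 0.27.

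Of 13 mitochondrially encoded genes none lay above 0, where 78% of all genes did, with a median of -0.22. At the unadjusted limit 4 were lower, where 0.681% of all genes were. mt-Nd6, a complex I subunit and the only one of the 13 coded on the light strand, had 4832, 4014 and 4488 TPM in combination libraries and 4679 to 7010 TPM in single-acid libraries (-0.44 ± 0.13). Only propionate 6, at 4679 TPM, was below a combination library. mt-Nd5 (-0.32 ± 0.13), mt-Nd1 (-0.30 ± 0.13) and mt-Atp8 (-0.33 ± 0.15) were the other 3. Without combination 2 the median was -0.12. With quantile normalization it was -0.12 as well, and none was lower at the limit. With median-of-ratios scaling it was -0.42 and 5 were lower, where 3.21% of all genes were. Nuclear genes of oxidative phosphorylation gave none of 23 past the limit and a median of 0.05 (-0.15 with median-of-ratios scaling). Of 20 glycolysis and hypoxia genes 5 were above 0 (median -0.05), with Slc2a1, a glucose transporter, at 0.39 ± 0.16 and Vegfa, a vessel growth factor, at -0.36 ± 0.24.

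Of 7 red cell genes tested, 6 lay above 0 and 5 were past the unadjusted limit (71.4%, against 12.4% of all genes). Their median was 0.87, and 0.99 without combination 2. With median-of-ratios scaling it was 0.67 and none was past the limit. Hba-a1, an alpha globin, had 383, 368 and 633 TPM in combination libraries, 120, 299, 190 and 302 TPM in propionate libraries, and 96.5, 159, 193, 355 and 466 TPM in butyrate libraries (1.05 ± 0.42). Butyrate 6 lay above 2 of the combination libraries. Hbb-bs, a beta globin (0.94 ± 0.40), and Alas2, the first enzyme of haem synthesis in red cells (0.72 ± 0.30), were higher too; globin reads may be shared between paralogs. In the Wt1-high libraries, with 2 combination and 3 single-acid samples, the list's median was -0.92. For 6 of the 7, the log2 fold change itself differed between Wt1-low and Wt1-high samples at an unadjusted limma p under 0.05. Over all genes 1.85% did so upward and 0.386% downward, and none passed after adjustment. The summed TPM of the list was 3532 to 5614 in combination libraries and 1109 to 4380 in single-acid libraries, and the part of blood in the endothelial and leukocyte values was not tested.

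Of 16 genes of the integrated stress and unfolded protein responses, 15 were above 0 (median 0.43). Of these 16, 6 were past the limit (37.5%, against 12.4% of all genes). Without combination 2 the median was 0.25 and 1 was past it, and with median-of-ratios scaling 5 were. Dnajb9, a chaperone of the endoplasmic reticulum, did not overlap, with 29.6, 33.8 and 31.1 TPM in combination libraries and 21.8 to 29.2 TPM in single-acid libraries (0.31 ± 0.11). Sdf2l1 (0.74 ± 0.26), Xbp1 (0.48 ± 0.18) and Asns, asparagine synthetase (0.65 ± 0.28), overlapped. Of 17 immediate early and AP-1 genes 6 were past the limit (35.3%, against 12.4% of all genes), with a median of 0.50. Without combination 2 the median was 0.16 and 1 gene was past it, where 2.93% of all genes were. With median-of-ratios scaling 1 was past it, where 6.02% of all genes were, and with quantile normalization 1 was. Dusp1, a phosphatase induced by stress and glucocorticoids, did not overlap, with 42.2, 63.2 and 39.7 TPM in combination libraries and 18.3 to 39.6 TPM in single-acid libraries (0.63 ± 0.22). Klf4 (0.64 ± 0.22), Jund (0.53 ± 0.23) and Zfp36 (0.55 ± 0.25) overlapped.

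Of 22 cytosolic ribosomal protein genes 21 were above 0 (median 0.31). Past the limit were 9 (40.9%, against 12.4% of all genes), such as Rpsa (0.31 ± 0.12), Rpl13 (0.39 ± 0.15) and Rps2 (0.33 ± 0.13). With median-of-ratios scaling the median was 0.11 and none was past it. Cell cycle genes had none of 18 past the limit, and 3 without butyrate 3, where 19.3% of all genes were. Mki67, a proliferation marker, differed by 0.30 ± 0.42. Cdkn1a, the cell cycle inhibitor p21, differed by 0.20 ± 0.23 and Il15, a cytokine made by muscle, by 0.04 ± 0.16 (-0.14 with median-of-ratios scaling). Of 18 clock genes 1 was lower past the limit: Nr1d1, a repressor of the clock, had 49.97, 86.6 and 57.3 TPM in combination libraries and 66.4 to 111 TPM in single-acid libraries (-0.39 ± 0.17). Dbp, a clock output factor, differed by -0.62 ± 0.48 and Pdk4, which spares glucose in fasting, by -0.48 ± 0.55.

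**Figure D5:**
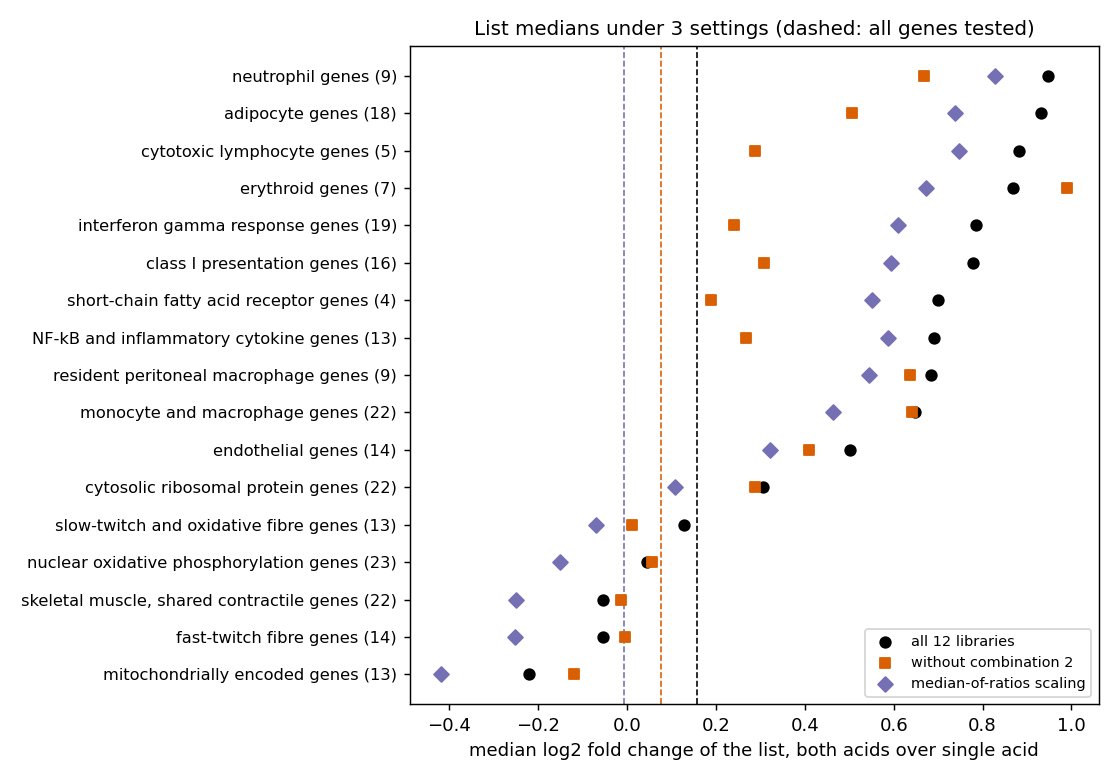
Median log2 fold change, both acids over one acid, of 17 gene lists (tested genes in brackets) with all 12 libraries (circles), without combination 2 (squares) and with median-of-ratios scaling (diamonds); dashed lines are the medians over all genes tested, 0.16, 0.08 and -0.01. Without combination 2, class I, interferon gamma and cytotoxic lists stand at 0.31, 0.24 and 0.29, whereas monocyte and macrophage genes stand at 0.64 and erythroid genes at 0.99.

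All 47 lists held at least 1 tested gene, and 35 of them had a median above that of all genes. The count was 32 without combination 2 and 34 with median-of-ratios scaling, each against the median of all genes in the same setting. Of 9 tested class II genes none was past the limit (median 0.57), where 12.4% of all genes were, and of 11 dendritic cell genes 1 was (0.30). Without butyrate 3, 1 class II gene and 2 dendritic cell genes were past it, where 19.3% of all genes were. B cell and plasma cell genes (1 of 15, median 0.09), checkpoint and regulatory T genes (1 of 6, 0.25), fibroblast and matrix genes (3 of 18, 0.35), smooth muscle genes (1 of 12, 0.25), Schwann cell genes (1 of 10, 0.19), heat shock genes (1 of 16, 0.18) and p53 targets (2 of 14, 0.16) completed them. Ovarian steroid genes kept 3 tested of 12, with no test because they follow Wt1. Exocrine pancreas genes kept 2 of 12, and Cela1 among them, an elastase also made outside the pancreas, had 2.72 to 11.6 TPM in combination libraries and 0.45 to 3.95 TPM in single-acid libraries (1.13 ± 0.43).

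The 2 single acids were also taken apart, in comparisons that share the 3 combination libraries. Against the 4 propionate libraries, 2381 genes (16.7%) were higher and 162 (1.14%) lower with both acids at an unadjusted p under 0.05, with a median of 0.21. Against the 5 butyrate libraries, 867 (6.08%) were higher and 53 (0.372%) lower, with a median of 0.13. The macrophage list had a median of 0.96 over propionate and 0.50 over butyrate, mast cell and eosinophil genes 0.97 over propionate and 0.33 over butyrate, and fat cell genes 1.01 over propionate and 0.85 over butyrate. Class I genes had 0.80 over propionate and 0.78 over butyrate. Whether these values differ between the acids was not tested.

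Against propionate 1 gene passed (0.00702% of genes tested), the predicted gene Gm26316, named because it passed. It was listed at 0 TPM in all combination libraries, against 1.54, 2.78, 2.49 and 2.49 TPM in propionate libraries (limma adjusted p = 0.00406). It was at 0 in all butyrate libraries too, and it did not pass with a pseudocount of 0.1. Genes of smallest unadjusted p against propionate that did not pass included Slc38a3, a glutamine carrier of muscle and liver, with 18.2, 19.3 and 20.9 TPM in combination libraries and 23.6 to 31.1 TPM in propionate libraries (-0.49 ± 0.12). Mlxipl, a carbohydrate-sensing transcription factor, had 19.5, 20.1 and 23.7 TPM in combination libraries and 27.0 to 40.7 TPM in propionate libraries. Lmod1, a smooth muscle actin nucleator, had 14.5 to 15.8 TPM in combination libraries and 20.9 to 40.8 TPM in propionate libraries. On the higher side, the predicted gene Gm56663 had 15.4 to 21.5 TPM in combination libraries and 3.29 to 8.83 TPM in propionate libraries.

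No gene passed against butyrate (smallest limma adjusted p = 0.187). That value belonged to Usp2, a deubiquitinase under clock control, with 33.0, 33.9 and 28.6 TPM in combination libraries and 17.7, 21.4, 17.8, 18.9 and 16.5 TPM in butyrate libraries (0.76 ± 0.11). The propionate libraries lay between, at 25.6 to 27.0 TPM. Sox6os, an antisense transcript of Sox6, had 5.50 to 8.35 TPM in combination libraries and 1.81 to 3.31 TPM in butyrate libraries, and Gm28266 had 4.23 to 6.76 TPM in combination libraries and 1.21 to 2.85 TPM in butyrate libraries. Zfp973, a zinc finger gene, was lower, with 2.56 to 5.55 TPM in combination libraries and 5.96 to 9.47 TPM in butyrate libraries, as was AI838599, with 1.23 to 2.30 TPM in combination libraries and 1.84 to 4.85 TPM in butyrate libraries.

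The difference between both acids and one acid was set against the same difference in Wt1-high treated libraries, 2 with both acids and 3 with one. No gene passed for this difference of differences (smallest limma adjusted p = 0.0873). At an unadjusted p under 0.05, 264 genes (1.85%) had the larger value in Wt1-low samples and 55 (0.386%) the smaller, and the median over all genes was 0.20. Of the 23 genes, 19 were above 0 in Wt1-high samples as well, by at most 0.40; having been chosen in the Wt1-low libraries, they carry no test of this difference. Fat cell genes had a median of 0.03 in Wt1-high samples and endothelial genes one of 0.02, where that of all genes was -0.04. No gene of these 2 lists had an unadjusted limma p under 0.05 for the difference of differences. The macrophage list stood at 0.37, class I genes at 0.38 and neutrophil genes at 0.68 in Wt1-high samples. The genes of smallest p for this difference were Gm17122, Ccl21a, a lymphoid chemokine with paralogs, Rapgef4 and 9230114K14Rik on the higher side, and Smim5, Tceal3, Gm4294 and Gm47101 on the lower side. Rapgef4, a cAMP-sensing exchange factor, had a log2 fold change of 0.42 ± 0.15 in Wt1-low samples and of -0.51 in Wt1-high samples.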

How the data were processed

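TPM values of 24 libraries were deposited by the authors in one table of 149132 transcripts; TPM is scaled to a fixed total per library, so a gene that takes a larger share lowers the others. Per the submitters' processing notes, fastp, HISAT2, StringTie and the mouse build mm39 were used; versions, settings and annotation: not given in the sources used here. TPM was summed by gene name (56422 names); 1001 unnamed transcripts, 0.174 to 0.470% of TPM, were left out.

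Genes at 1 TPM or more in at least 3 of the 12 libraries (14254) were fitted as log2(TPM + 1) with limma 3.58.1 in R 4.3.3 (trend and robust moderation). The pseudocount understates fold changes of low genes. Tests are two-sided, with Benjamini-Hochberg adjustment over all genes and a threshold of 0.05; values after ± are SD for TPM and shares and SE for log2 fold changes. Make-up measures had exact permutation tests. On simulated data for both acids against one acid, with 14254 genes, 75% of genes changed by 1 on the log2 scale and 97% of those changed by 2 were recovered, with 9 false calls. Values were simulated gene by gene, without shifts shared by a library, and changed genes averaged at least 2 on the log2 scale. In the data 145 genes (1.02%) lay at least 1 higher and none passed. Whether the simulated recovery holds in these data was not tested.

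Libraries, gene lists and named genes were chosen with earlier results of these data known. Named are the 24 genes of smallest unadjusted p for both acids against one acid (mean log2 value of at least 1), 4 higher and 4 lower genes for each other comparison, up to 4 members of each described list, and a fixed set of acid, immune, muscle and clock genes; a few of these are not reported here. A list is described by counts and its median. Replicate numbers of the labels were not used as pairs in the main fit. Deviations from group means of samples with the same title or library number correlated from -0.35 to 0.36. These are too few pairs to tell whether the numbers pair samples. No 2 libraries held identical values. Alternatives covered pseudocount, filter, scaling, moderation, block, covariates, weights and each library left out.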

Additional observations from a re-analysis of the deposited data

Results flagged for a closer look

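In 9 of 142 genes and measures examined, 1 of the 9 single-acid libraries lay far from the other 8, where chance alone flags about 1 in 20. On the log2(TPM + 1) scale, butyrate 6 was high for Cmklr1 (4.02, next library 3.47), Blvrb (4.62, next 4.10) and Slc2a1 (3.05, next 2.63), and low for Prkg1 (3.01, next 3.58). Butyrate 5 was low for Il1r2 (0.390, next 0.888), and butyrate 3 was high for Il1b (1.62, next 0.864). Propionate 2 was high for Pccb (5.76, next 5.38), Acta1 (14.7, next 14.3) and Lmod1 (5.39, next 4.60).

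Combination 5, which the comparison leaves out, held a summed TPM of 1710 over the T cell genes, against at most 113 in any of the 6 untreated libraries.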

How the results depend on the processing

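Of 139 genes followed over the alternatives, 131 kept their sign throughout. Depth is unknown, 3 combination libraries limit every test, and causes of the changes below were not tested. Genes past the adjusted threshold between both acids and one acid, 0 as reported, numbered 1 with no filter, 207 with all treated libraries and a Wt1 covariate, 1098 with weights per library, 1441 with a replicate block by library number, and 0 with a replicate block by title number (with 2162 higher genes and 94 lower ones before adjustment, beside 1773 and 97); leaving out 1 library gave 0 to 8. Whether the numbers pair samples cannot be told from so few same-numbered samples. Genes higher at an unadjusted p under 0.05 numbered 858 with median-of-ratios scaling, 822 with quantile normalization, 4413 with combination 5 included, 788 with no Wt1 limit, 5048 with the library-number block, 4176 with weights, and 344 with median-of-ratios scaling and no combination 2, an alternative added after seeing the data (418 to 2755 with 1 library left out). Genes lower numbered 211 with no filter, 57 with a 5 TPM filter, 458 and 543 with the 2 scalings, 216 with combination 5, 435 with weights and 190 with that added alternative (66 to 152).

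Against propionate, the 1 gene passing became 0 with a pseudocount of 0.1, a 5 TPM filter or the title block, 2 with no filter, and 1 to 3 with 1 library left out. Against butyrate, no filter gave 1 gene, and each library left out gave 0. For the Wt1-low minus Wt1-high difference the range was 0 to 1. With combination 5 included, the mitochondrial share differed by -5.36 percentage points and the top 50 share by -9.65, both past the threshold. With 1 library left out these ranged from -5.26 to -2.72 and from -7.25 to -3.85, and the number of genes at 1 TPM from 42.8 to 462.

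Signs turned for 8 genes. Slc16a1 was at -0.18 with median-of-ratios scaling, -0.19 with quantile normalization, -0.15 with the title block, -0.00085 with a pseudocount of 0.1, -0.0030 with acids weighted equally, -0.24 in the added alternative and -0.17 to 0.33 with 1 library left out. Il15 was at -0.14 with both scalings, -0.11 with combination 5, -0.12 with the library-number block, -0.070 with weights, -0.019 in the added alternative and -0.023 to 0.079 with 1 library left out. Acta1 was at -0.13 with median-of-ratios scaling, -3.05 with combination 5, -0.0062 with no Wt1 limit, -0.058 in the added alternative and -0.020 to 0.18 with 1 library left out. Pcca was at -0.012 in the added alternative, and with combination 5 Ankrd2 was at -0.91, Csrp3 at -1.73 (-0.049 with no Wt1 limit), Myog at -0.26 and Usp2 at -0.21.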

Other observations

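Combination 5 had 67.3 TPM of Cd8a and 5.29 TPM of Foxp3, where the 12 muscle-rich libraries had at most 1.04 and 0.53 TPM. Its Adipoq level was 1529 TPM, above the 604 TPM of combination 2, and its Acta1 level was 2.52 TPM.

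The untreated library with a low Wt1 level, control 3, stood within the single-acid range for Saa3 (21.9 TPM), Ccl7 (2.99 TPM), Adipoq (146 TPM) and Cdh5 (37.5 TPM). For Plxna2 it stood at 4.00 TPM, beside 3.44 to 4.11 TPM in combination libraries and 1.90 to 2.56 TPM in single-acid libraries. Control 3 also lay above all 9 single-acid libraries for Hspa12b (9.77 TPM), Dok4 (5.30 TPM), Gata2 (4.32 TPM) and Slc25a25 (8.55 TPM). For others of the 23 genes, such as Klf2 (11.7 TPM) and Cmklr1 (11.4 TPM), it lay within their range. As 1 library it allows no test.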
